A study of Mus musculus with 2 samples.

Results

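The genes described here are the Wnt ligands, their receptors and co-receptors, the R-spondins, the secreted Wnt antagonists and the core β-catenin components, chosen by symbol in the annotation of the Affymetrix Mouse430_2 array. The rule found 52 of 18194 genes, carried by 102 of the 34958 probe sets that have a single gene symbol. Tcf7, a further T-cell factor, was not analysed here. RNA came from mouse embryonic fibroblasts (MEFs) with a Malat1 knock-out and from wildtype MEFs, both from C57BL/6 embryos at day 13.5 and both kept untreated in culture for 2 weeks. Malat1 is an abundant nuclear long noncoding RNA. There was 1 array per genotype, so no value below has a replicate error and none carries a p-value. The labels used here do not state how the knock-out allele was built, which sex the embryos were or whether embryos were pooled.

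The arrays were checked against their labels first. The brightest Malat1 probe set read 4.53 in the knock-out array and 9.80 in the wildtype array, at least 20.6-fold lower. A probe set counted as measured at or above its array's median log2 signal, 5.44 for the knock-out and 5.39 for the wildtype, and a bound such as this one compares the measured signal with the floor of the array where the gene was not measured. Xist, the RNA of the inactive X chromosome, was measured in the knock-out array alone (11.49, against 4.50 in the wildtype array), and the Y-linked gene Eif2s3y in the wildtype array alone (2.81 in the knock-out, 8.57 in the wildtype). Sex-linked transcripts therefore separate the arrays along with genotype, and the contributions of sex and genotype cannot be told apart. None of the Wnt genes (0 of 52) lies on the X or Y chromosome. All 16 fibroblast and mesenchyme markers, among them Col1a1, Vim, Thy1 and Prrx1, were measured on both arrays.

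Wnt proteins are secreted lipid-modified ligands that bind Frizzled receptors. With the co-receptors Lrp5 and Lrp6 they halt the breakdown of β-catenin, which then enters the nucleus and acts through TCF and LEF transcription factors. Other Wnts, Wnt5a above all, act largely without β-catenin, through Ror and Ptk7 receptors and the planar polarity machinery. R-spondins amplify the signal by keeping Frizzled on the cell surface, while Sfrp proteins and Wif1 bind Wnts outside the cell and Dkk1 blocks Lrp5 and Lrp6. In the embryo these proteins pattern the limb, skin and skeleton, from which MEF cultures draw many of their cells.

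The TCF and LEF factors are known to bind the letters CTTTGAT or near variants of them. RefSeq windows of 300 bases (250 before and 50 after a transcript start, build GRCm38.p6) were at hand for 34 of the member genes, 42 windows in all, and were searched on both strands for CTTTGAT and CTTTGAA. These motifs differ in their last letter and cannot overlap on one strand. CTTTGAT was in 2 member windows, 1 of the 3 windows of Wnt5b and 1 of the 2 windows of Wnt11, and in 3.73% of all 32851 windows. CTTTGAA was in 1 member window, that of Dkk1, and in 5.14% of all windows. Counts of 2 and 1 among 42 windows are near those shares of all windows, so they are no result about the Wnt genes. The matching stretches are shown with the match in capitals, 5′ to 3′ on the gene's strand. The first letter of the match lies 71, 51 and 117 bases before the start in the order given. Each printed stretch is the match with 30 bases on either side. The stretches lie at chr6:119449421-119449487 (minus strand), chr7:98835031-98835097 (plus strand) and chr19:30549577-30549643 (minus strand).
Wnt5b: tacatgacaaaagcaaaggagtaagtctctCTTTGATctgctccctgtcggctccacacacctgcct
Wnt11: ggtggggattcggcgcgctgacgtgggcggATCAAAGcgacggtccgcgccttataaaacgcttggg
Dkk1: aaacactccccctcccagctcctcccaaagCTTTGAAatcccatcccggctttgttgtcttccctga
On the Wnt11 strand the match reads as its reverse complement, ATCAAAG. These are matches of letters, and binding was not measured.

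As a whole, the Wnt genes differed little between the arrays. Of the 52 genes, 33 were measured on both arrays, 2 in the knock-out array alone, 1 in the wildtype array alone and 16 on neither. None of the 33 passed 1.5-fold (0 higher, 0 lower), a size passed by 2.44% of the 11295 genes measured on both arrays, 0.832% higher and 1.61% lower, so a count of 0 among 33 genes is near that background. Their log2 differences, knock-out minus wildtype, ran from -0.38 (Dkk3) to 0.41 (Wnt7b), and 0 of 33 lay outside the range of -0.52 to 0.44 that holds the central 95% of all measured genes. At a smaller size of 0.32 log2 units there were 4 genes higher (Wnt7b, Sfrp1, Wnt2 and Wnt7a) and 3 lower (Dkk3, Rspo2 and Fzd2) in the knock-out array, against 5.96% and 9.91% of all measured genes. In sign alone 14 were higher and 18 lower, beside 39.2% and 59.8% of all measured genes, and 1 gene had the same value on both arrays. The median difference was -0.02 over the Wnt genes and -0.05 over all measured genes, and both medians turned positive under each of the 3 other scalings of the arrays.

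**Figure D1:**
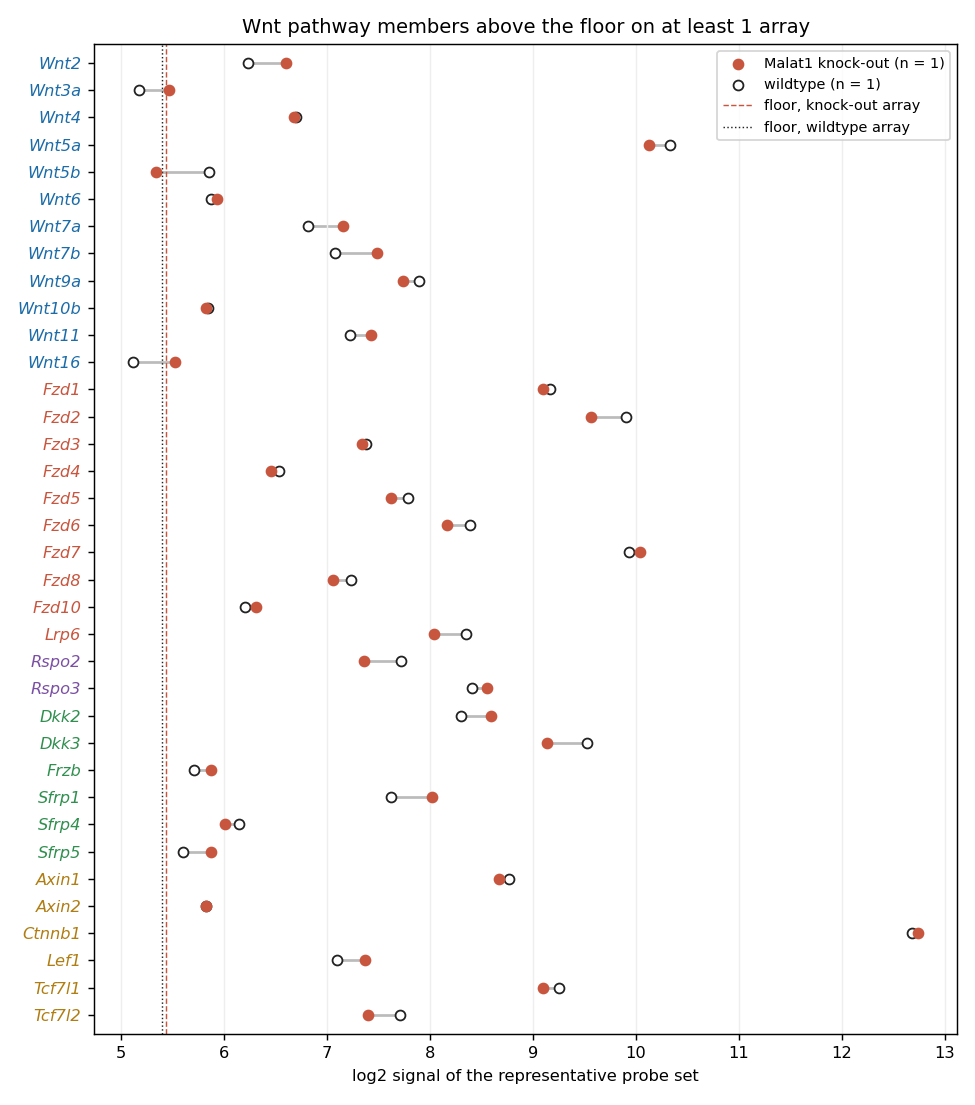
Log2 signal (horizontal axis) of the representative probe set of each of the 36 Wnt genes measured on at least 1 array, in the knock-out array (filled) and the wildtype array (open), with the floor of each array as a vertical line and gene names coloured by role. Signals can be compared within a row only. The points of most genes lie close together, and Wnt5b, Wnt3a and Wnt16 cross the floor.

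Among the 19 Wnt ligands, 9 were measured on both arrays, with a median difference of 0.06. Of these 9, 5 were higher and 4 lower in the knock-out array, beside 39.2% and 59.8% of all measured genes. Wnt7b, a ligand of lung and kidney epithelium, read 7.49 in the knock-out and 7.08 in the wildtype array, 1.33-fold higher, and its dimmer probe set gave the identical value of 4.79 on both arrays, below the floor. Wnt7a, known from the dorsal ectoderm of the limb, read 7.15 in the knock-out and 6.81 in the wildtype, 1.27-fold higher, and its other 2 probe sets, below the floor, differed by 0.32 and 0.17 in the same direction. Wnt2, a ligand of embryonic mesenchyme, read 6.61 in the knock-out and 6.23 in the wildtype, 1.30-fold higher, at its only probe set. These 3 genes stayed higher under all 3 other scalings.

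Most measured epithelial markers were also higher in the knock-out array. Of 12 such markers 7 were measured on both arrays, 6 of them higher and 1 lower, with a median of 0.47. Past 1.5-fold there were 2 higher (Cldn4 and Perp) and 1 lower (Sfn, at -0.62), beside 0.832% and 1.61% of all measured genes. The marker counts of this paragraph stand beside 39.2% higher and 59.8% lower of all measured genes, and most of them rest on few genes. The log2 of the summed signal of all 12, those below the floor included, was 10.77 in the knock-out and 10.45 in the wildtype array. Cdh1, which defines epithelium, was below the floor on both arrays (3.19 in the knock-out and 2.66 in the wildtype), while Epcam was measured on both (7.51 and 7.24). Whether epithelial cells had a part in the Wnt7a and Wnt7b signals was not tested. All 5 endothelial markers measured on both arrays were higher, with a median of 0.41, while 8 of 10 leukocyte markers were lower, with a median of -0.40. The endothelial markers Pecam1, Cdh5, Tie1 and Tek were below the floor on both arrays, with differences of 0.41, 0, -0.38 and 0.25. Esam was measured in the wildtype array alone and differed by -0.03. Smooth muscle and pericyte markers were higher in 6 of 7 (median 0.08, Rgs5 at 0.98), and neural, glial and neural crest markers in 4 of 7 (median 0.28, Gap43 at 0.86). Both measured cartilage and bone markers, Sox9 and Col2a1, were lower (median -0.34). Skeletal muscle markers were higher in 3 of 5 and fat markers in 2 of 3, with medians of 0.22 and 0.12. The part of these cell types in the Wnt values was not tested either. In bulk RNA, a different number of cells of a type and a different amount of RNA per cell cannot be told apart.

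Wnt5a, the main ligand of the β-catenin-independent branch and a driver of limb outgrowth, was lower in the knock-out array at each of its 4 probe sets. The brightest read 10.13 in the knock-out and 10.33 in the wildtype, 1.15-fold lower, the next 9.06 and 9.32, and the next again 7.92 and 8.20. The dimmest, below the floor, read 4.05 in the knock-out and 4.39 in the wildtype. Its close relative Wnt5b, for which a motif stretch is printed above, was measured in the wildtype array alone. Wnt5b read 5.33 in the knock-out and 5.85 in the wildtype, at least 1.34-fold lower. The second Wnt5b probe set, also under the floor in the knock-out array, differed by -0.56. Both Wnt5a and Wnt5b kept this direction in the 3 other scalings. The Wnt5a differences are close in size to the pooled SD of 0.199 between probe sets of one gene, and the Wnt5b signals are close to the floor. Of the fibroblast and mesenchyme markers 11 of 16 were lower and 5 higher in the knock-out array. That count is near the 59.8% lower and 39.2% higher of all measured genes. Their median was -0.26, beside -0.05 over all measured genes. Their log2 summed signal was 16.55 in the knock-out and 16.73 in the wildtype. The part of these markers in the Wnt5a difference was not tested.

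The remaining measured ligands differed less. Wnt11, another mostly β-catenin-independent ligand, was 0.20 log2 units higher, at 7.43 in the knock-out and 7.23 in the wildtype. Wnt9a, which acts in joint formation, differed by -0.15, Wnt4, a ligand of kidney and gonad development, by -0.02, Wnt6 by 0.06 and Wnt10b, which restrains fat cell formation, by -0.01. The signs of Wnt4 and Wnt10b turned under other scalings. Wnt16 and Wnt3a (Wnt3a is needed for the formation of trunk mesoderm) were measured in the knock-out array alone, at 5.52 and 5.46, with wildtype signals of 5.12 and 5.17 just under the floor, which gives at least 1.09-fold and 1.05-fold higher. The other 7 ligands, Wnt1, Wnt2b, Wnt3, Wnt8a, Wnt8b, Wnt9b and Wnt10a, were below the floor on both arrays. In the RefSeq gene order 4 pairs of ligands are direct neighbours (Wnt6 and Wnt10a, Wnt3a and Wnt9a, Wnt9b and Wnt3, Wnt10b and Wnt1), and in no pair were both genes measured on both arrays.

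Most receptors were slightly lower in the knock-out array as deposited, as were most measured genes. Of 10 receptors measured on both arrays 8 were lower and 2 higher, beside 59.8% and 39.2% of all measured genes. Their median was -0.12, beside -0.05 over all measured genes. This split was 7 and 3 with the median difference of all probe sets set to 0, where 52.5% of all measured genes were higher. It was 5 and 5 once the arrays were quantile normalized (55.0% of all genes higher). With loess centring it was 6 and 4 (52.7% higher), so it leans on the scaling of the arrays. Fzd2, a Frizzled of embryonic mesenchyme that can serve as a Wnt5a receptor, read 9.57 in the knock-out and 9.90 in the wildtype, 1.26-fold lower. The other Fzd2 probe sets read 9.26 and 9.18 in the knock-out and 9.66 and 9.59 in the wildtype, so all 3 differed by -0.41 to -0.33. Lrp6, the co-receptor of the β-catenin branch, read 8.04 in the knock-out and 8.35 in the wildtype, 1.24-fold lower, but its second probe set differed by 0.11 the other way.

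Among the other Frizzled receptors, Fzd6 differed by -0.22, Fzd8 by -0.17, Fzd5 by -0.16, Fzd4 by -0.07, Fzd1 by -0.07 and Fzd3 by -0.04. Fzd7 and Fzd10 differed by 0.11 each in the other direction. Fzd3 has the most probe sets of any member, and its 4 measured ones ran from -0.19 to 0.16, a spread wider than its own difference. The dimmer Fzd6 probe sets, each below the floor on 1 array, disagreed, with a difference of -0.27 at one and 0.56 at the other. The second Fzd5 probe set differed by 0.05 and the second Fzd4 probe set, below the floor in the wildtype array, by 0.25, both opposite to the brightest. Fzd9 and the co-receptor Lrp5 were below the floor on both arrays.

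The R-spondins gave no shared direction. Rspo3, needed for placental vessels, read 8.56 in the knock-out and 8.40 in the wildtype, 0.15 log2 units higher. Rspo2, which acts in limb outgrowth, read 7.36 in the knock-out and 7.72 in the wildtype at its brighter probe set, 1.28-fold lower, and 7.04 in the knock-out and 6.63 in the wildtype at the other, 1.33-fold higher. The Rspo2 probe sets thus contradict each other, and their mean difference was 0.02. Rspo1, Rspo4 and Lgr5, a receptor for R-spondins and a stem cell marker, were below the floor on both arrays.

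Among the secreted antagonists, Sfrp1 and Dkk3 differed in opposite directions, each at all of its probe sets. Sfrp1, a Frizzled-related decoy that binds Wnts, read 8.03 in the knock-out and 7.62 in the wildtype at its brightest probe set, 1.32-fold higher. Its other measured probe sets read 7.25, 7.12 and 6.61 in the knock-out and 6.60, 6.61 and 6.35 in the wildtype, a log2 difference of 0.65, 0.51 and 0.26. The dimmest, below the floor in the wildtype array, read 5.65 in the knock-out and 5.23 in the wildtype, so all 5 were higher in the knock-out array. The probe set at 0.65 ends in _x_at, a design in which some probes also match other transcripts, and it alone passed 1.5-fold. At its brightest probe set Sfrp1 was 0.46 to 0.53 log2 units higher under the other scalings, and 96.6% of all measured genes had a lower difference.

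Dkk3, a divergent member of the Dickkopf family, had the lowest difference of the 33 genes measured on both arrays. It read 9.14 in the knock-out and 9.52 in the wildtype at its brightest probe set, 1.31-fold lower, and 8.49 in the knock-out and 9.13 in the wildtype at the other, 1.56-fold lower. Dkk2, which acts on Lrp5 and Lrp6, went the other way at its only probe set, with 8.59 in the knock-out and 8.30 in the wildtype, 1.22-fold higher. Sfrp5 and Frzb, both Wnt-binding proteins of the Sfrp family, were 0.27 and 0.16 log2 units higher at signals near the floor, and Sfrp4 differed by -0.13. Dkk1, Dkk4, Sfrp2 and Wif1 were below the floor on both arrays. Of the 6 antagonists measured on both arrays 4 were higher and 2 lower, with a median of 0.22, beside 39.2% and 59.8% of all measured genes. This split was the same under the 3 other scalings, where 52.5% to 55.0% of all measured genes were higher. A count of 4 among 6 genes is near those shares.

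**Figure D2:**
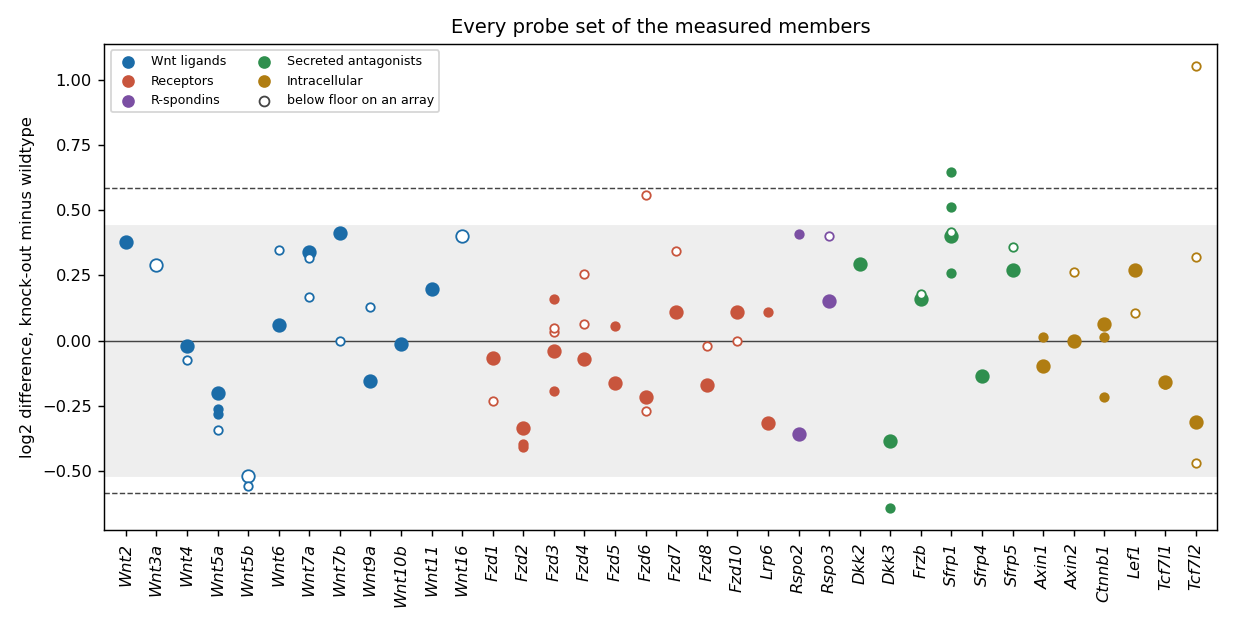
Log2 difference, knock-out minus wildtype (vertical axis), of every probe set of the 36 Wnt genes measured on at least 1 array, coloured by role. The representative probe set is the larger point, open points were below the floor on at least 1 array, dashed lines mark 1.5-fold and the grey band holds the central 95% of all measured genes. Of 51 probe sets measured on both arrays, 1 of Sfrp1 passes 1.5-fold higher and 1 of Dkk3 lower. These counts are near the 0.678% and 2.25% of all measured probe sets. Among probe sets measured on both arrays, those of Axin1, Ctnnb1, Fzd3, Fzd5, Lrp6 and Rspo2 fall on both sides of 0. With the open points taken in, those of Fzd4, Fzd6, Tcf7l2 and Wnt9a do so as well.

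Inside the cell, β-catenin and its scaffold were close to equal in the arrays. Ctnnb1, which encodes β-catenin, read 12.74 in the knock-out and 12.68 in the wildtype, and its 3 probe sets differed by -0.21 to 0.06. Axin1, the scaffold of the β-catenin destruction complex, differed by -0.10. Axin2, a feedback inhibitor that β-catenin induces in most tissues, had the identical value of 5.82 on both arrays, near the floor. Values identical on both arrays occurred in 1210 non-control probe sets (2.69%), 4 of them among the Wnt genes, the other 3 being below the floor probe sets of Fzd10, Wnt7b and Wnt8b.

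The transcription factors differed in both directions. Lef1, itself often induced by β-catenin, read 7.37 in the knock-out and 7.10 in the wildtype, 1.21-fold higher. Tcf7l1, which acts mainly as a repressor, was lower at both probe sets, with 9.10 in the knock-out and 9.26 in the wildtype at the brighter one, and a difference of -0.17 at the other. Tcf7l2 read 7.40 in the knock-out and 7.71 in the wildtype at its brightest probe set, 1.24-fold lower. Its 4 probe sets ran from -0.47 to 1.05, and the one at 1.05 was not measured on either array, at 4.34 in the knock-out and 3.28 in the wildtype.

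The direction shared by probe sets of one gene was set beside the rest of the arrays. Of 11 Wnt genes with at least 2 probe sets measured on both arrays, 5 had all of them on one side of 0 (Dkk3, Fzd2, Sfrp1, Tcf7l1 and Wnt5a), against 56.3% of all 4883 such genes. With at least 3 measured probe sets it was 3 of 5 (Fzd2, Sfrp1 and Wnt5a), against 43.8% of 1924 genes. At the level of single probe sets, 1 of 51 measured on both arrays passed 1.5-fold higher (Sfrp1) and 1 lower (Dkk3), near the 0.678% and 2.25% of all 19178 measured probe sets. Probe sets of a gene read the same RNA, so they are no replicates.

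**Figure D3:**
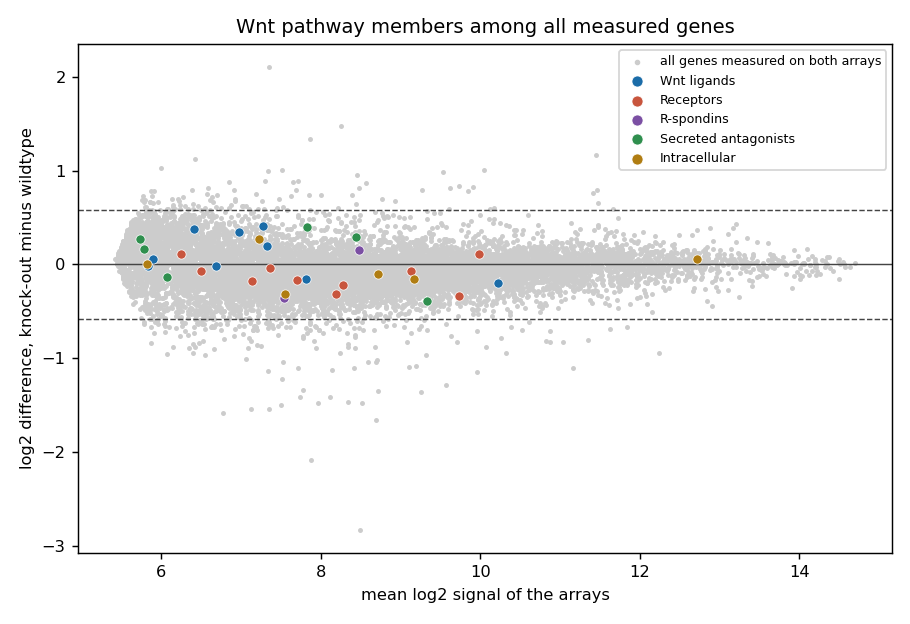
Log2 difference, knock-out minus wildtype (vertical axis), against the mean log2 signal of the arrays (horizontal axis) for all 11295 genes measured on both arrays (grey) and the 33 Wnt genes among them (coloured by role). Dashed lines mark 1.5-fold, and every Wnt gene lies between them.

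Other genes of the pathway were taken from 4 lists that hold no member. Their counts stand beside 39.2% higher and 59.8% lower of all measured genes and were not taken under other scalings. The share of all genes that were higher also depended on the signal, at 51.5% without a floor and 34.5% under a floor at the 75th percentile. Of 15 measured genes for Wnt secretion and surface partners, 4 were higher and 11 lower in the knock-out array, with a median of -0.11. Gpc3, Gpc4 and Porcn of these, with differences of 0.27, 0.18 and -0.19, lie on the X chromosome. So does Amer1 of the intracellular relay (-0.15). Ptk7, a co-receptor for planar polarity signalling, read 8.93 in the knock-out and 10.21 in the wildtype at its only probe set, a difference of -1.28. By the brightest probe sets it was the one gene of the secretion and surface list past 1.5-fold. Apcdd1, a membrane inhibitor of Wnt signalling, was 0.31 higher at its brightest probe set, an _x_at design. Its other probe sets measured on both arrays ran from 0.01 to 0.49. Ror1, a Wnt5a receptor, differed by -0.30. Ror2, the other Ror receptor, read 7.68 in the knock-out and 7.96 in the wildtype. Its dimmer probe set read 5.82 and 6.62, a difference of -0.80 and so past 1.5-fold.

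In the intracellular relay 5 of 24 measured genes were higher and 19 lower, with a median of -0.10 and none past 1.5-fold at the brightest probe set. Dimmer probe sets of Bcl9 and Tle3, measured on both arrays, were lower past that size, at -0.82 and -0.60. At their brightest probe sets Dvl2, an adaptor that binds activated Frizzled, and Bcl9, a β-catenin cofactor, differed by -0.50 each. Apc2 differed by 0.44 near the floor, at 5.85 in the knock-out and 5.42 in the wildtype. Its other probe sets were below the floor on both arrays. Of the measured planar polarity genes 8 of 9 were higher, against 39.2% of all measured genes, with a median of 0.08 and none past 1.5-fold. Intu, Vangl1 and Celsr2 were 0.38, 0.36 and 0.30 higher. Celsr2 was near the floor, at 5.80 in the knock-out and 5.51 in the wildtype. The other differences among these 9 genes were smaller in size than the pooled SD of 0.199 between probe sets of one gene. Celsr3 was measured in the knock-out array alone, at 5.68 against 5.38 in the wildtype, at least 1.22-fold higher. The second measured Intu probe set differed by -0.05.

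Of 18 measured genes known as β-catenin targets in some tissues, 7 were higher and 11 lower, with a median of -0.05, the same as over all measured genes. Ccn5, a matricellular protein, read 7.61 in the knock-out and 9.07 in the wildtype at its only probe set, a difference of -1.47. Nfatc1, a transcription factor of heart valves and osteoclasts, read 7.49 in the knock-out and 8.16 in the wildtype, and its other measured probe sets ran from -0.62 to 0.06. Id2, an inhibitor of helix-loop-helix factors, was 0.33 higher. The cell-cycle targets Ccnd1 and Myc differed by 0.17 and -0.28, and the feedback inhibitors Nkd1 and Nkd2 by 0.15 and 0.10. Sp5, among the most general targets, was below the floor on both arrays.

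**Figure D4:**
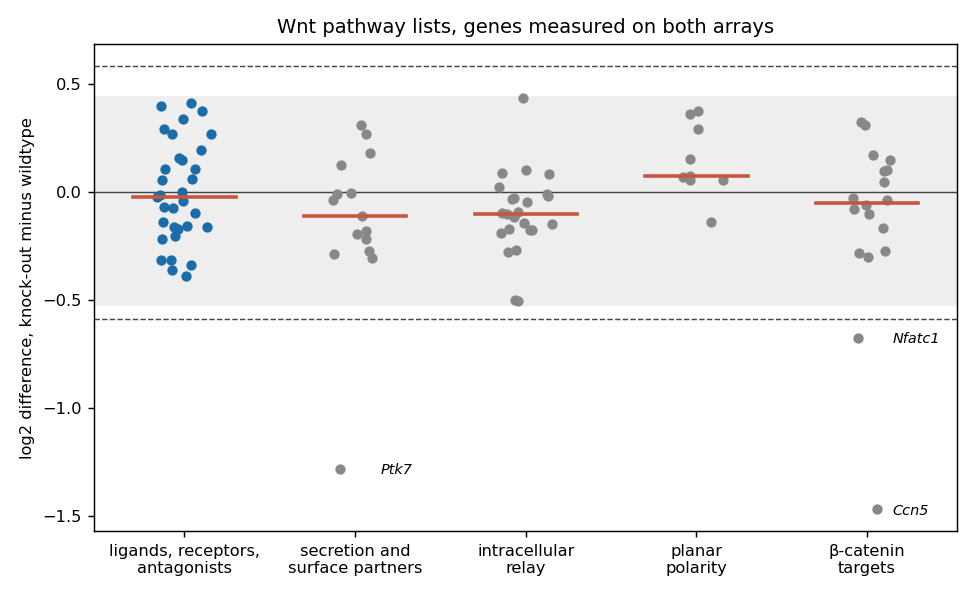
Log2 difference, knock-out minus wildtype (vertical axis), of genes measured on both arrays among the 33 Wnt genes (blue) and in 4 further pathway lists (grey), with the median of each as a red bar, dashed lines at 1.5-fold and a grey band for the central 95% of all measured genes. Only Ptk7, Ccn5 and Nfatc1 of the genes drawn lie beyond 1.5-fold, all lower in the knock-out array.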

How the data were processed

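Each array has 1 deposited value per probe set, which was read as log2 signal from the range of the values. The authors' summarization, normalization and software are not stated in the labels used here. Names came from the platform's annotation. Probe sets annotated to several symbols (932) or to no symbol (9160) were not used, and the probe set with the highest mean stood for its gene. The floor was the median of each array over 45037 non-control probe sets. Values were used as deposited, since the median difference of measured probe sets was -0.06. Groups came from the genotype labels. With 1 array per genotype a size of 1.5-fold stood in for a test, and precision is limited by the number of arrays. Members and lists were chosen with earlier results of these data known. Every member is named. Of other pathway genes, up to 3 per list with the largest difference were named. Ror2, Gpc3, Gpc4, Porcn, Amer1, Tle3, Celsr3, Ccnd1, Myc, Nkd1, Nkd2, Sp5 and the markers were named after their values were seen. Alternatives were 3 other scalings (loess span 0.3), 3 other floors, constants of 16 and 64 added to linear values, the mean of the measured and the median of all probe sets of a gene, and omission of the _x_at and _s_at probe sets. Python 3.11.15, pandas 2.3.3 and statsmodels 0.14.6 were used.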

Additional observations from a re-analysis of the deposited data

How the results depend on the processing

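No paired analysis was possible because there is 1 array for each genotype. No Wnt gene passed 1.5-fold under any of the 11 other scalings, floors, added constants and probe set rules, nor at a size of 2-fold, while 4 higher and 3 lower passed 0.32 log2 units. The median difference of the measured Wnt genes was -0.02 as deposited, 0.0432 with the median of all measured probe sets set to 0, 0.0160 after loess centring, 0.0257 without a floor (52 genes) and -0.157 under a floor at the 75th percentile (14 genes). The last 2 use other genes. Over all measured genes the medians in the same order were -0.05, 0.0119, 0.0120, 0.0136 and -0.0601. After quantile normalization the median was 0.0149 over the Wnt genes and 0.0230 over all measured genes. Setting the median to 0 moves every knock-out value by the same amount, and loess centring takes out a fitted difference between the arrays. Those medians thus moved with the scaling itself. Of 393 single-gene values under alternatives, 8 moved by more than 0.199 log2 units, the pooled SD between probe sets of one gene. They belong to 6 genes (Lrp6, Rspo2, Tcf7l2, Wnt5b, Wnt7b and Wnt16). With other probe sets taken in, the sign turned for Rspo2 (0.0240), Tcf7l2 (0.00413), Ctnnb1 (-0.0457) and Fzd4 (0.0654). Signs of Axin1, Fzd1, Fzd3, Fzd4, Wnt4 and Wnt10b turned under at least 1 other scaling. Dim signals limit the account, since 16 of 52 genes were below the floor on both arrays, among them 7 of 19 ligands, 4 of 10 antagonists and 3 of 5 genes of the R-spondin axis.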
